A study of Mus musculus with 36 samples.

Results

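The Schlafen gene cluster of the mouse is a run of related genes on chromosome 11. The 7 members described here are Slfn5, Slfn9, Slfn8, Slfn2, Slfn1, Slfn4 and Slfn3, in their order along the chromosome, and they span 263.8 kb. A chromatin accessibility peak was taken as a member when it overlapped the body of one of these genes or the 10 kb to either side of it. This rule selected 40 of the 119751 peaks in the deposited count table. Of the 40 peaks, 7 contain the annotated start of a gene, 12 others lie in a gene body and 21 lie in the flanks. The start of every one of the 7 genes lies inside a peak. Another gene, in most cases a non-coding one, is overlapped by 12 of the 40 peaks, and 8 lie within 10 kb of more than 1 member. Slfn8 and Slfn9 are transcribed from the minus strand and the other 5 from the plus strand.

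Open chromatin was profiled in cultured dendritic cells with ATAC-seq, an assay that uses a transposase to cut and tag accessible DNA. The cells were grown with GM-CSF (15 ng/mL) from bone marrow of female C57BL/6J mice aged 6 to 8 weeks, and 50000 cells went into each library. Every group shares this genetic background, and the labels name no mutation or transgene. The control group, called Ctrl, received no ligand, and 17 groups received 1, 2 or 3 ligands of innate immune receptors for 6 h. The ligands appear in the labels as PAM (written P here), LPS (written L), HMW (H), depleted zymosan (Z), SeV (S) and 3',3'-cGAMP (cG), and the letters are joined for combinations. LPS is a bacterial ligand of TLR4, SeV stands for Sendai virus, an RNA virus, and 3',3'-cGAMP is a ligand of STING. The single ligands form 6 groups, the pairs are PL, PH, LH, PS, PcG, ScG, ZS and ZcG, and the triplets are PLH, PScG and ZScG. Each of the 18 groups has 2 libraries, 36 in all, and doses are not stated in the labels used here. Nothing in the labels says that the libraries of a group came from separate mice or cultures, so the p-values measure only the spread between these libraries. A library holds many cells, so that a region open in more cells and a region more open in each cell cannot be told apart.

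Schlafen proteins are found in mammals and are named for a role in holding developing T cells in a quiet state. In mice they fall into short members (Slfn1 and Slfn2), intermediate members (Slfn3 and Slfn4) and long members with an added helicase-like region (Slfn5, Slfn8 and Slfn9). Many of them are induced by type I interferon, which acts through the interferon-stimulated response element (ISRE) bound by STAT and IRF proteins, and Slfn4 and Slfn5 are known to respond in myeloid cells. Slfn2 is needed for T cells and monocytes to stay quiescent and to survive activation.

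The promoters are shown so that the ISRE letters they hold can be set beside the start peaks of the same genes. Each line gives the 250 bases before the annotated start, read from RefSeq on build GRCm38.p6, 5′ to 3′ on the gene's own strand, with the ISRE core in capitals. The core was searched on both strands as GAAA, any 2 bases and GAAA. Slfn5, Slfn9 and Slfn8 are the long members, and Slfn2 and Slfn1 are the short ones.
Slfn5 (chr11:82951852-82952101, plus strand): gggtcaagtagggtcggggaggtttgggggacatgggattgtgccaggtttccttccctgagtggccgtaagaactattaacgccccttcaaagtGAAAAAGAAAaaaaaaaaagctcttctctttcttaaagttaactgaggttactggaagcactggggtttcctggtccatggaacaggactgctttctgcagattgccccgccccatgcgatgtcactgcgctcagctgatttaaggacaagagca
Slfn9 (chr11:82991831-82992080, minus strand): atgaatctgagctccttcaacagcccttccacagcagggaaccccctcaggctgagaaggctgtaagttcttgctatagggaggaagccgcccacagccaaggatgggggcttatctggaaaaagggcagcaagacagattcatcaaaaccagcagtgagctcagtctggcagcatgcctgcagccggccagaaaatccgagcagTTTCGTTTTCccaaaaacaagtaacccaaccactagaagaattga
Slfn8 (chr11:83020811-83021060, minus strand): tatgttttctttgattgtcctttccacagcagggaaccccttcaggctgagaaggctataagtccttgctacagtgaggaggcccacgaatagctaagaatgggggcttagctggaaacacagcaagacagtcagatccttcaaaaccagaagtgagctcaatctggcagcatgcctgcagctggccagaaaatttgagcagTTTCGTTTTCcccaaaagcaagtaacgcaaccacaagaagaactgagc
Slfn2 (chr11:83064862-83065111, plus strand): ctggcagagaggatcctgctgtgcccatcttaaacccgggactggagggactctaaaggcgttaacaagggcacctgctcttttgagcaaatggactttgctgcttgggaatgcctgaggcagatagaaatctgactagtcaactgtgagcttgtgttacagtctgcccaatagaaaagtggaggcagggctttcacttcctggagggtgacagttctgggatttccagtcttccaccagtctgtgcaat
Slfn1 (chr11:83116570-83116819, plus strand): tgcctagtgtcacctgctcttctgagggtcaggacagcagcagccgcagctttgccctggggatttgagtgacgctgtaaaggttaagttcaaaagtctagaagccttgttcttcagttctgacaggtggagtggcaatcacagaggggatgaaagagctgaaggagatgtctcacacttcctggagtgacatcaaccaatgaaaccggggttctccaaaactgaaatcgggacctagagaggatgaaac

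The ISRE core lay at −155 to −146 from the start of Slfn5, at −45 to −36 from that of Slfn9 and at −48 to −39 from the start of Slfn8 shown, where −1 is the base just before the start. RefSeq lists a second Slfn8 start, from which the same letters lie at −136 to −127. In Slfn9 and Slfn8 the match is the same run of letters, TTTCGTTTTC, and the longest stretch that the printed promoters of both genes share is 20 bases. The core was found in 4 of the 8 member promoters, where both Slfn8 windows count the same match. Of the 32851 promoters of the table, each 250 bases before to 50 after a start, 3.44% held it. The promoters of Slfn2, Slfn1, Slfn4 and Slfn3 had no match, which says only that these letters are not in these windows. A GAS element (TTCNNNGAA) was in 0 of the 8, against 8.3% of all promoters. An NF-kappaB motif (GGG, any 5 bases and CC) was found in Slfn1 and Slfn9, and in 50.8% of all promoters. An AP-1 motif (TGANTCA) was found in Slfn4, and in 7.81% of all promoters. The PU.1 core (GAGGAAGT) was in 0 of the 8, against 3.2% of all. All motifs were searched on both strands, and no match of 1 motif shared bases with a match of another. The printed window of each of the 5 genes lies wholly inside that gene's start peak.

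Library size and mitochondrial DNA varied among the libraries. Total counts ran from 19097027 to 39977088 per library, of which 8181254 to 21985891 lay outside the mitochondrial peak. The 40 Schlafen peaks together held 1380 to 5399 counts per library. The mitochondrial share was 57.2% to 63.1% in the 10 libraries of Ctrl, Z, ZcG, ScG and ZScG and 44.1% to 58.1% in the other 26, of which 1 ZS library reached 58.1%. For the 13 stimulations of the second set, the stimulation and the lower mitochondrial share cannot be told apart in a comparison with Ctrl. Scaling by total counts instead of TMM shifted the median of all peaks against Ctrl by 0.20 to 0.43 on the log2 scale in these 13 and by −0.06 to 0.07 in the other 4. Comparisons of L, H, S and cG with P stay within the second set and use no control library. Within that set, every L and cG library had a lower share than both P libraries. All 7 dendritic cell marker genes and all 3 macrophage marker genes had a peak within 1 kb of their start or end, as had 5 of 18 marker genes of other lineages. The defining genes without a peak include Ly6g, Mpo and Elane of neutrophils, Cd3e of T cells, Pax5 of B cells and Cpa3 of mast cells. The summed level at the 9 dendritic cell marker peaks was 94.8 CPM in LH to 120.0 CPM in H, and that at the 6 macrophage peaks was 49.2 CPM in Z to 70.9 CPM in L. The part of these differences in the results was not tested.

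All 40 peaks passed the filter on low counts and were tested. Their mean level over all libraries ran from 0.419 to 48.9 CPM (counts relative to the TMM-scaled library total), and 10 of them had a mean under 1 CPM. Per kilobase of peak, the start peaks had mean levels of 14.8 CPM at Slfn2, 12.9 at Slfn5, 7.41 at Slfn9, 7.25 at Slfn3, 7.16 at Slfn1, 6.66 at Slfn8 and 2.84 at Slfn4. Slfn2 and Slfn5 thus had the densest signal and Slfn4 the thinnest. The genes are near copies of one another in places, the reads were 42 bases long, and how reads matching several copies were handled is not given in the sources used here. Signal that belongs to one copy may therefore be counted at another.

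**Figure D1:**
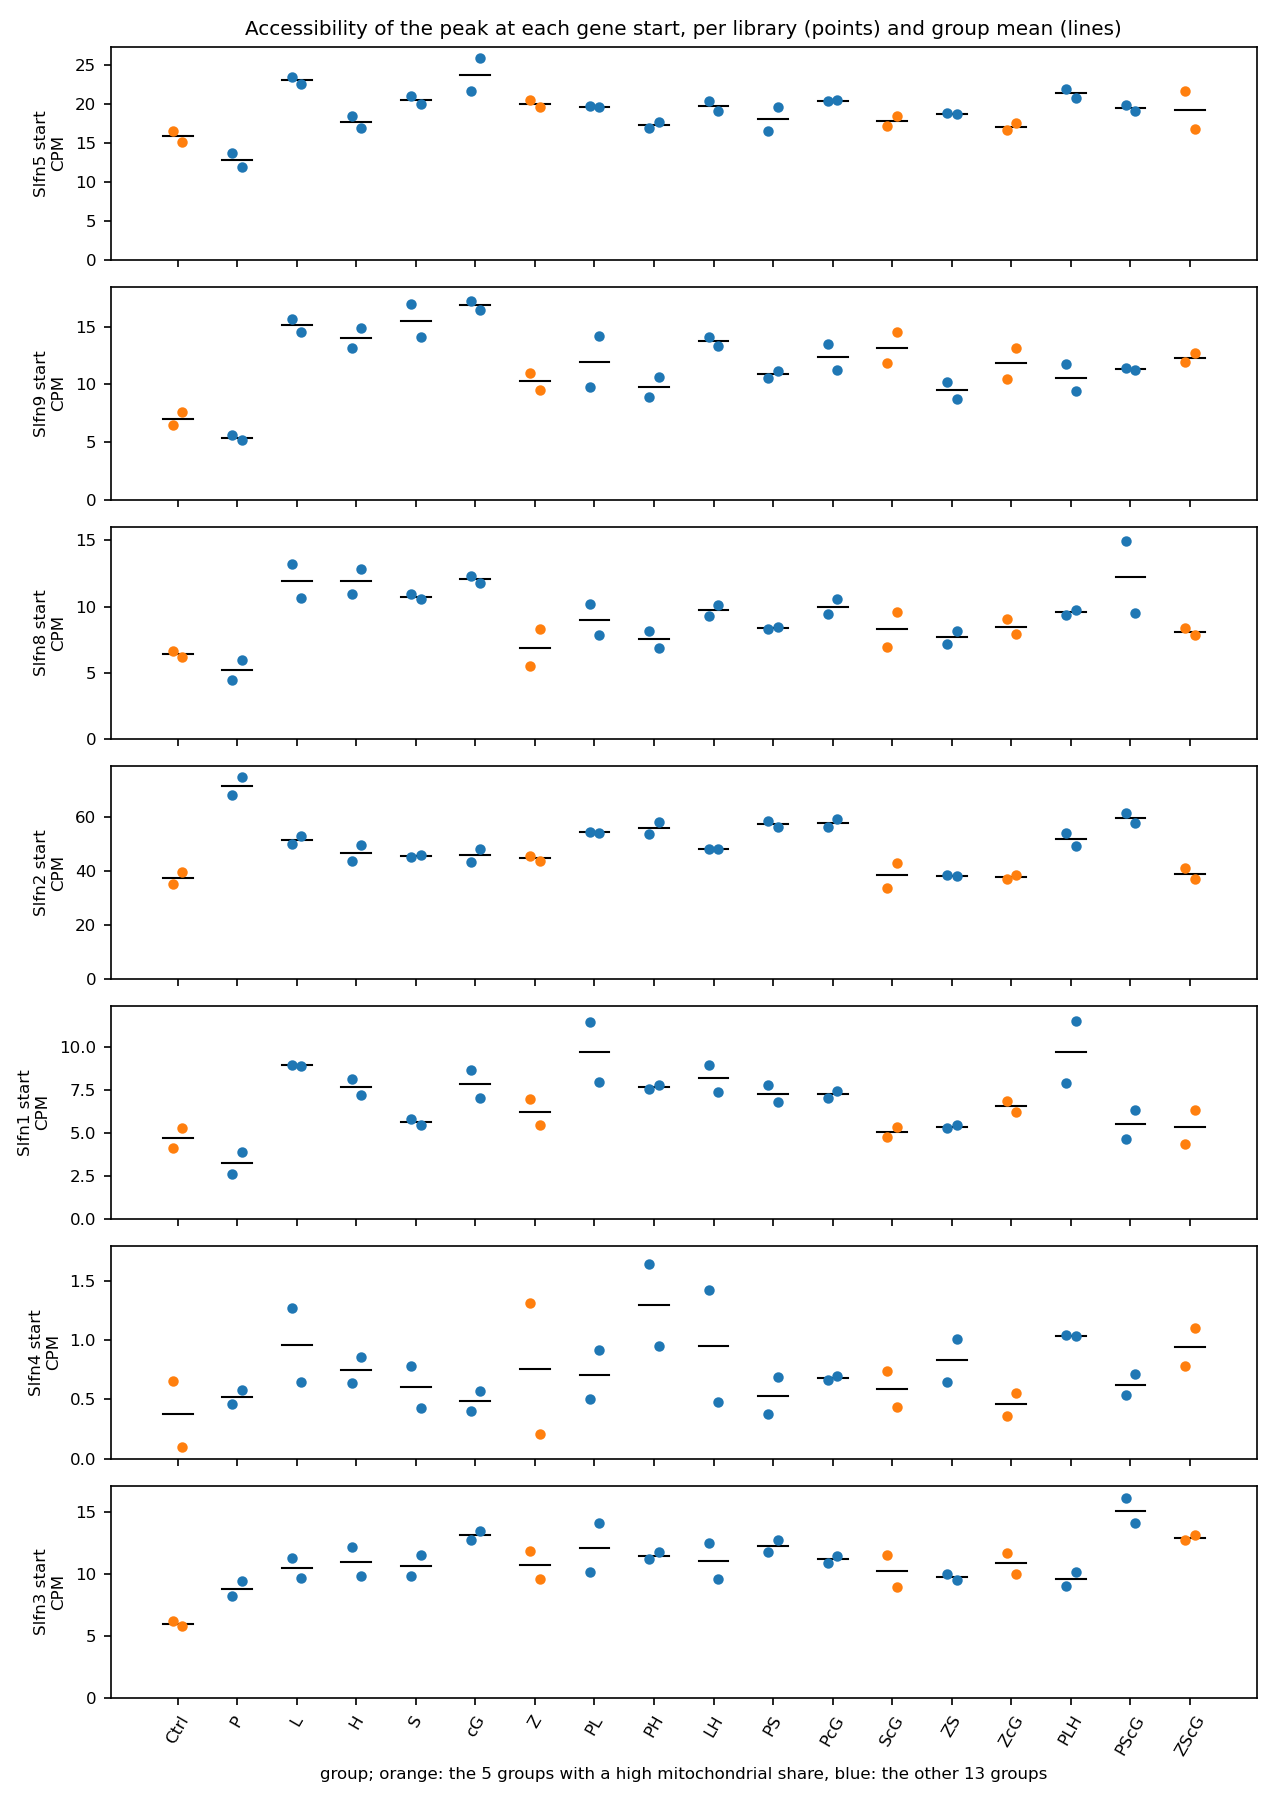
Accessibility (CPM, y axis from 0) of the peak at each of the 7 gene starts in every library (points, 2 per group) with the group mean (line), for 18 groups on the x axis. Orange marks the 5 groups with the higher mitochondrial share. At Slfn9 and Slfn8 the P and Ctrl libraries are the lowest of those outside Z, and at Slfn2 the P libraries, at 68.2 and 74.5 CPM, are the highest of the 36.

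The clearest difference within the cluster was between P and the other single ligands that share its range of mitochondrial share. L, H, S and cG each raised the start peaks of the long members Slfn9, Slfn8 and Slfn5 and of the short member Slfn1 above their level in P, while the start peak of Slfn2 was lower than in P with each of the 4. These 4 comparisons were added after the fits had been seen. A peak was called when its adjusted p-value from edgeR was under 0.05. L against P called 16 of the 40 peaks higher and 1 lower, where 5.18% of all tested peaks were higher and 5.9% lower. H against P called 12 higher and 1 lower (all peaks, 4.95% and 7.18%). S against P called 11 higher and 2 lower (all peaks, 11.6% and 12.9%). cG against P called 15 higher and 2 lower (all peaks, 11.1% and 12.7%). The share of Schlafen peaks called higher was 40% for L, 30% for H, 27.5% for S and 37.5% for cG, above the share of all peaks in each. The members' median log2 fold change was 0.85 for L, 0.47 for H, 0.36 for S and 0.42 for cG, beside 0.01 to 0.04 over all tested peaks. The 4 comparisons share the P libraries and are not independent of one another. In all 4, the same 8 peaks were higher and 1 was lower. How many of all tested peaks were called in all 4 was not counted. The other lower call, with S and with cG, was the peak 2.4 kb after the Slfn5 start, which also overlaps the antisense gene Slfn5os and had 5.501 and 4.48 CPM with P, 1.701 and 1.35 with S and 1.03 and 2.58 with cG. Its log2 fold change over P was -1.70 ± 0.36 (SE, adjusted p from edgeR = 6.92e-05) with S and -1.44 ± 0.36 (adjusted p 0.000942) with cG, without overlap of libraries. ATAC-seq reads carry no strand to assign the peak to either gene. This peak is outside the rule for named peaks and is given because it was called lower.

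**Figure D2:**
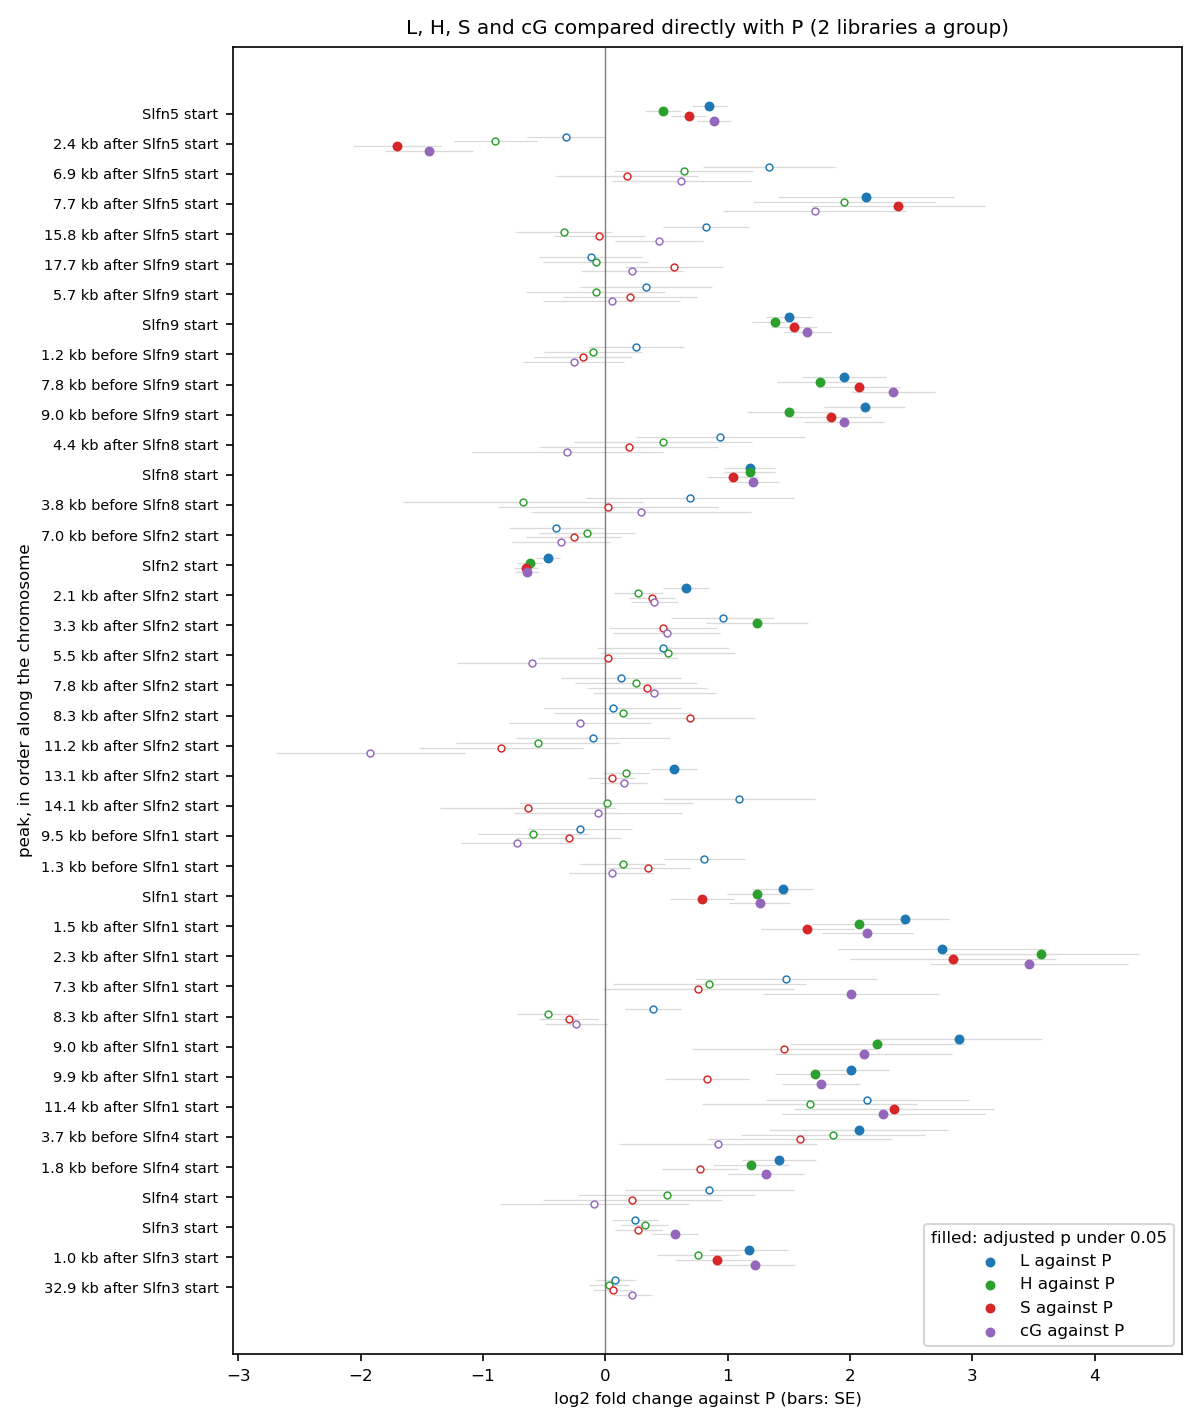
Log2 fold change of each of the 40 peaks (rows, in chromosomal order) in L, H, S and cG against P (x axis, bars are SE, 2 libraries a group). Filled points passed an adjusted p of 0.05, and at the starts of Slfn5, Slfn9, Slfn8 and Slfn1 all 4 points are filled and above 0, while at the Slfn2 start all 4 are filled and below 0.

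The start peak of Slfn9, a long member (chr11:82990623-82992209, mm10), had 6.45 and 7.62 CPM in the 2 Ctrl libraries and 5.58 and 5.13 CPM with P. The other single ligands gave 15.7 and 14.6 CPM with L, 13.2 and 14.9 with H, 16.9 and 14.1 with S, 17.3 and 16.5 with cG and 11.02 and 9.54 with Z. All 8 libraries of L, H, S and cG lay above all Ctrl and P libraries. Against P, the log2 fold change was 1.5 ± 0.19 (SE, adjusted p from edgeR = 1.44e-10) with L and 1.39 ± 0.19 (adjusted p 3.84e-09) with H. It was 1.54 ± 0.19 (SE, adjusted p from edgeR = 7.84e-12) with S and 1.65 ± 0.19 (adjusted p 2.99e-13) with cG. Against Ctrl the same 4 ligands gave log2 fold changes of 1.10, 0.99, 1.14 and 1.26, all called, also with the mitochondrial share in the model. The fold change of P against Ctrl was -0.40 ± 0.22 (SE, adjusted p from edgeR = 0.2) and did not pass. The pairs gave 9.76 and 14.2 CPM in PL, 8.88 and 10.6 in PH, 14.1 and 13.3 in LH, 10.6 and 11.2 in PS. The other pairs gave 13.5 and 11.3 CPM in PcG, 11.8 and 14.5 in ScG, 10.2 and 8.76 in ZS and 10.5 and 13.1 in ZcG. The triplets gave 11.7 and 9.44 CPM in PLH, 11.4 and 11.2 in PScG and 11.9 and 12.7 in ZScG. The libraries of every combination lay above those of Ctrl and P. In the order of group means from cG down to P, neighbours were separated beyond their 2 libraries at 3 of 17 steps, between PScG and PS, between ZS and Ctrl and between Ctrl and P.

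The start peak of Slfn8, the neighbouring long member (chr11:83019820-83021190), had 6.66 and 6.17 CPM in Ctrl and 4.43 and 5.99 CPM with P. The remaining single ligands had levels of 13.2 and 10.6 CPM with L, 10.99 and 12.8 with H, 10.9 and 10.6 with S, 12.3 and 11.8 with cG and 5.51 and 8.29 with Z. Again all 8 libraries of L, H, S and cG lay above those of Ctrl and P, while those of Z did not. Against P the log2 fold change was 1.18 ± 0.21 (SE, adjusted p from edgeR = 6.87e-06) with L and 1.18 ± 0.21 (adjusted p 7.04e-06) with H. It was 1.04 ± 0.21 (SE, adjusted p from edgeR = 3.88e-05) with S and 1.21 ± 0.21 (adjusted p 1.63e-06) with cG. Against Ctrl these 4 ligands gave 0.89, 0.89, 0.74 and 0.91, all called by edgeR, but none with the mitochondrial share in the model, where the fold changes were 0.82, 0.85, 0.70 and 0.86. The call for S was lost without Ctrl replicate 2 (adjusted p = 0.0596) and that for H without H replicate 2 (adjusted p = 0.05). P against Ctrl gave -0.29 ± 0.24 (adjusted p 0.422), not called, with the sign reversed to 0.03 under total-count scaling. Among the pairs, values were 10.2 and 7.84 CPM in PL, 8.16 and 6.91 in PH, 9.29 and 10.2 in LH, 8.34 and 8.48 in PS. The remaining pairs had 9.43 and 10.6 CPM in PcG, 6.97 and 9.62 in ScG, 7.199 and 8.202 in ZS and 9.05 and 7.901 in ZcG. Levels in triplets were 9.39 and 9.73 CPM in PLH, 14.99 and 9.53 in PScG and 8.38 and 7.86 in ZScG, and the 2 PScG libraries differed more from each other than those of most groups. In the order from PScG down to P, the 17 steps held 1 separation beyond the libraries, between Ctrl and P.

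The start peak of Slfn5, a long member known as a nuclear regulator of transcription (chr11:82951812-82953288), had 16.6 and 15.1 CPM in Ctrl and 13.8 and 11.9 CPM with P. The other single ligands gave 23.5 and 22.6 CPM with L, 18.5 and 16.98 with H, 21 and 20.1 with S, 21.6 and 25.9 with cG and 20.5 and 19.6 with Z. The P libraries were the lowest of all 36, and those of L, H, S, cG and Z lay above Ctrl. Relative to P, the log2 fold change reached 0.85 ± 0.14 (SE, adjusted p from edgeR = 1.46e-06) with L and 0.89 ± 0.14 (adjusted p 1.15e-07) with cG. It was 0.68 ± 0.14 (SE, adjusted p from edgeR = 7.06e-05) with S and 0.47 ± 0.15 (adjusted p 0.0188) with H. The call for H was lost without P replicate 2 (adjusted p = 0.247) or H replicate 1 (adjusted p = 0.182). Against Ctrl, L (0.54), S (0.37) and cG (0.59) passed and H (0.17) did not. Each of those 3 calls was lost without 1 library, L without Ctrl replicate 2, cG without cG replicate 2 and S without any of its 4 libraries (adjusted p from edgeR 0.0571, 0.0665 and 0.0777 to 0.239). None of the 3 was called with the mitochondrial share in the model, where the fold changes were 0.58, 0.40 and 0.62. P against Ctrl gave -0.31 ± 0.15 (adjusted p 0.155), not called, and 0.02 under total-count scaling. With pairs of ligands the levels were 19.7 and 19.6 CPM in PL, 16.9 and 17.7 in PH, 20.4 and 19.1 in LH, 16.5 and 19.6 in PS. Levels in the further pairs were 20.4 and 20.5 CPM in PcG, 17.2 and 18.5 in ScG, 18.8 and 18.7 in ZS and 16.6 and 17.6 in ZcG. With 3 ligands the values were 21.97 and 20.8 CPM in PLH, 19.9 and 19.1 in PScG and 21.7 and 16.8 in ZScG. Changes at this peak were smaller on the log2 scale than at Slfn9 in each of the 4 comparisons with P. From cG down to P, 3 of 17 neighbouring steps were separated, between L and PLH, between ZcG and Ctrl and between Ctrl and P.

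The start peak of Slfn1, a short member (chr11:83116563-83117508), had 4.15 and 5.305 CPM in Ctrl and 2.598 and 3.899 CPM with P. The remaining single ligands had levels of 8.97 and 8.899 CPM with L, 8.13 and 7.24 with H, 5.82 and 5.47 with S, 8.67 and 7.02 with cG and 6.95 and 5.45 with Z. The P libraries were the lowest, and those of S lay only just above the higher Ctrl library. Against P the log2 fold change was 1.45 ± 0.25 (SE, adjusted p from edgeR = 2.13e-06) with L and 1.24 ± 0.25 (adjusted p 9.61e-05) with H. It was 1.26 ± 0.25 (SE, adjusted p from edgeR = 2.88e-05) with cG and 0.79 ± 0.26 (adjusted p 0.0145) with S. The call for S was lost without P replicate 1 (adjusted p = 0.246) or S replicate 1 (adjusted p = 0.0828). Against Ctrl, L (0.91) and cG (0.72) passed, and both calls were lost without Ctrl replicate 1 (adjusted p from edgeR 0.0828 and 0.23). With the mitochondrial share in the model neither was called, and the fold changes fell to 0.36 and 0.23. The cG call was also lost without cG replicate 1 (adjusted p = 0.201). The pairs gave 11.5 and 7.94 CPM in PL, 7.57 and 7.804 in PH, 8.98 and 7.38 in LH, 7.77 and 6.82 in PS. For the other combinations of 2 ligands the values were 7.03 and 7.46 CPM in PcG, 4.74 and 5.36 in ScG, 5.26 and 5.44 in ZS and 6.88 and 6.23 in ZcG. The triplets gave 7.89 and 11.5 CPM in PLH, 4.67 and 6.33 in PScG and 4.36 and 6.34 in ZScG. From PL down to P, neighbours were separated at 2 of 17 steps, between PcG and ZcG and between Ctrl and P.

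The start peak of Slfn2, the other short member, was highest with P, where that of Slfn1 was lowest. The peak is the widest of the cluster at 3297 bp (chr11:83062993-83066289) and also overlaps the non-coding gene Gm20234. It had 35.1 and 39.6 CPM in Ctrl and 68.2 and 74.5 CPM with P. The other single ligands gave 49.95 and 52.96 CPM with L, 43.5 and 49.7 with H, 45.1 and 45.9 with S, 43.3 and 48.2 with cG and 45.5 and 43.6 with Z. The P libraries were the highest of all 36, and no other library exceeded 61.5 CPM. P exceeded Ctrl by 0.93 ± 0.11 (SE, adjusted p from edgeR = 7.48e-14) on the log2 scale, and the call held with the mitochondrial share in the model. L, H, S and cG were lower, with log2 fold changes over P of -0.47 ± 0.10 (SE, adjusted p from edgeR = 0.000199), -0.62 ± 0.10 (adjusted p 4.88e-07), -0.65 ± 0.10 (adjusted p 3.36e-08) and -0.64 ± 0.10 (adjusted p 6.45e-08). Against Ctrl these 4 were higher by 0.46, 0.31, 0.28 and 0.29, and all 4 calls ended with the mitochondrial share in the model, where the fold changes were 0.75, 0.47, 0.51 and 0.55. Those of H, S and cG were also lost without Ctrl replicate 1 (adjusted p from edgeR 0.352, 0.303 and 0.309). The H call was further lost without H replicate 2 (0.364), the S call without S replicate 1 (0.0888) or 2 (0.128) and the cG call without cG replicate 2 (0.293).

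Most combinations with P had levels at the Slfn2 start between those of P and of the other single ligands. Among the pairs, values were 54.5 and 53.98 CPM in PL, 53.4 and 58.2 in PH, 47.9 and 48.1 in LH, 58.4 and 56.05 in PS. The other pairs gave 56.1 and 59.03 CPM in PcG, 33.7 and 42.96 in ScG, 38.5 and 37.9 in ZS and 36.8 and 38.5 in ZcG. Levels in triplets were 53.9 and 49.3 CPM in PLH, 61.5 and 57.8 in PScG and 40.9 and 36.95 in ZScG. The 14 libraries with P ran from 49.3 to 74.5 CPM with a median of 56.9, and the 10 libraries of L, H, S, cG and LH from 43.3 to 53.0 CPM with a median of 48.0. Both sets belong to the lower range of mitochondrial share, and they overlap. PS was above S by 0.33 ± 0.10 (SE, adjusted p from edgeR = 0.0413) and PcG was above cG by 0.33 ± 0.10 (adjusted p 0.0207). PL, PH, PS and PcG were each below P, with log2 fold changes of -0.40 ± 0.10 (adjusted p 0.00395), -0.35 ± 0.10 (adjusted p 0.0242), -0.32 ± 0.10 (adjusted p 0.0119) and -0.31 ± 0.10 (adjusted p 0.0185) in edgeR. The 10 libraries of Ctrl, Z, ScG, ZcG and ZScG ran from 33.7 to 45.5 CPM. ZS, with 38.5 and 37.9 CPM, lay inside that range although only 1 of its libraries had a mitochondrial share in the higher range. The Slfn2 start was called against Ctrl in 12 stimulations, none of them Z, ScG, ZS, ZcG or ZScG. From P down to Ctrl, 4 of 17 neighbouring steps were separated, between P and PScG, PL and PLH, L and LH, and Z and ZScG.

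**Figure D3:**
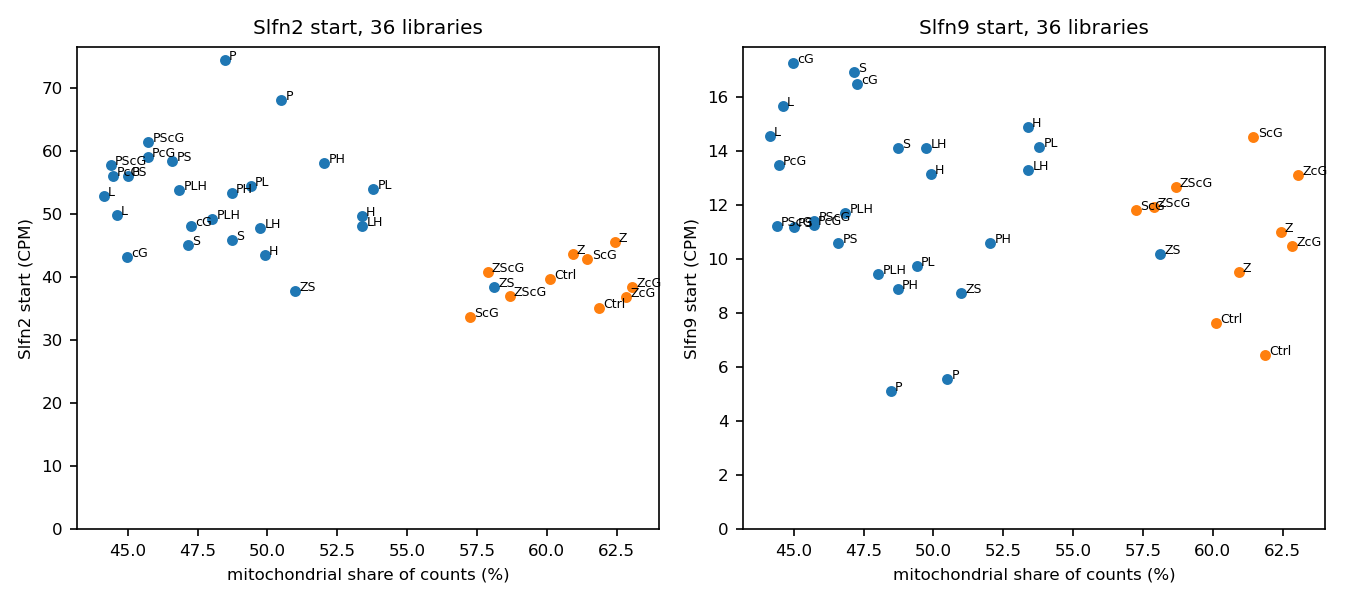
Accessibility (CPM, y axes from 0) of the Slfn2 start peak (left) and the Slfn9 start peak (right) against the mitochondrial share of counts (%, x axis), 1 point per library, labelled by group. Orange marks Ctrl, Z, ScG, ZcG and ZScG, with Slfn2 levels of 33.7 to 45.5 CPM beside 37.9 to 74.5 CPM in the 26 other libraries. At Slfn9 the P libraries (5.13 and 5.58 CPM) lie far below those of L, H, S and cG. Shares were 50.5% and 48.5% with P, 49.9% and 53.4% with H and 47.1% and 48.7% with S. They were lower than in P in both libraries of L (44.6% and 44.1%) and of cG (45.0% and 47.3%).

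The start peak of Slfn3, an intermediate member (chr11:83190428-83191939) had 6.23 and 5.79 CPM in Ctrl and 8.25 and 9.39 CPM with P. The remaining single ligands had levels of 11.3 and 9.65 CPM with L, 12.1 and 9.83 with H, 9.81 and 11.5 with S, 12.7 and 13.5 with cG and 11.8 and 9.54 with Z. All single-ligand libraries lay above both Ctrl libraries, those of Z included. With pairs of ligands the levels were 10.1 and 14.1 CPM in PL, 11.2 and 11.7 in PH, 12.5 and 9.597 in LH, 11.8 and 12.7 in PS. The remaining pairs had 10.9 and 11.5 CPM in PcG, 11.5 and 8.96 in ScG, 9.99 and 9.49 in ZS and 11.7 and 10.02 in ZcG. With 3 ligands the values were 8.997 and 10.2 CPM in PLH, 16.1 and 14.1 in PScG and 12.7 and 13.1 in ZScG. Both Ctrl libraries lay below the other 34, and it was the only member peak called higher than Ctrl in all 17 stimulations. The log2 fold change ran from 0.56 ± 0.21 (SE, adjusted p from edgeR = 0.0494) with P to 1.32 ± 0.20 (adjusted p 1.74e-08) with PScG. Within the higher range of mitochondrial share it was 0.82 ± 0.22 (SE, adjusted p from edgeR = 0.00916) with Z, 0.78 ± 0.22 (adjusted p 0.00305) with ScG, 0.85 ± 0.22 (adjusted p 0.00167) with ZcG and 1.10 ± 0.22 (adjusted p 1.27e-05) with ZScG. Among single ligands only the Z call held with the mitochondrial share in the model, where the fold changes were 0.57 with P, 0.82 with L, 0.89 with H, 0.85 with S, 1.14 with cG and 0.82 with Z. The call for P was lost without any 1 of its 4 libraries (adjusted p from edgeR 0.0621 to 0.243). The call for Z was lost without Ctrl replicate 1, Ctrl replicate 2 or Z replicate 1 (0.0501, 0.0973 and 0.158), and that for H without H replicate 1 (0.0785). Against P, cG was higher by 0.57 ± 0.19 (SE, adjusted p from edgeR = 0.0155), a call lost without P replicate 1 (0.138) or cG replicate 2 (0.0982), and L, H and S were not called. From PScG down to Ctrl, 3 of 17 steps were separated, between PScG and cG, ZScG and PS, and P and Ctrl.

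The start peak of Slfn4, a member studied in macrophages, is narrow and weak (chr11:83175130-83175386). It had 0.655 and 0.0965 CPM in Ctrl and 0.459 and 0.578 CPM with P. The other single ligands gave 1.27 and 0.647 CPM with L, 0.635 and 0.862 with H, 0.785 and 0.4305 with S, 0.398 and 0.573 with cG and 1.31 and 0.2098 with Z. The libraries of Ctrl, L and Z were spread widely, and the ranges of Ctrl, P, S and Z overlapped. The pairs gave 0.502 and 0.917 CPM in PL, 1.65 and 0.955 in PH, 1.42 and 0.476 in LH, 0.376 and 0.686 in PS. Levels in the further pairs were 0.663 and 0.701 CPM in PcG, 0.744 and 0.437 in ScG, 0.645 and 1.01 in ZS and 0.362 and 0.556 in ZcG. The triplets gave 1.04 and 1.03 CPM in PLH, 0.539 and 0.711 in PScG and 0.782 and 1.103 in ZScG. In Ctrl these levels correspond to 6 and 1 counts, and no neighbouring groups in the order from PH down to Ctrl were separated beyond their libraries. No stimulation was called, with log2 fold changes against Ctrl from 0.34 ± 0.93 (SE, adjusted p from edgeR = 0.84) to 1.80 ± 0.76 (adjusted p 0.0649).

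A stronger peak lies 1.8 kb before the Slfn4 start (chr11:83173060-83173707). It had 2.62 and 3.67 CPM in Ctrl, 1.99 and 2.82 with P, 7.63 and 5.34 with L and 6.68 and 5.301 with cG. The L and cG libraries lay above all 4 others. Relative to P, the log2 fold change reached 1.42 ± 0.30 (SE, adjusted p from edgeR = 0.000215) with L, 1.19 ± 0.31 (adjusted p 0.00301) with H and 1.31 ± 0.31 (adjusted p 0.000379) with cG, and S did not pass (0.77 ± 0.31 (adjusted p 0.055)). Against Ctrl, L (1.02) and cG (0.92) were called, and with the mitochondrial share in the model the values were -0.10 and -0.09, not called. This peak is outside the rule for named peaks and was chosen after its values were seen.

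Among peaks away from the starts, a pair between Slfn9 and Slfn8 was, like the starts of both genes, higher with L, H, S and cG than with P. The peak 7.8 kb before the Slfn9 start (chr11:82998993-83000203) had 1.64 and 1.25 CPM in Ctrl and 1.299 and 1.08 CPM with P. The remaining single ligands had levels of 4.38 and 4.85 CPM with L, 4.003 and 4.05 with H, 5.49 and 4.55 with S, 5.97 and 6.23 with cG and 2.62 and 2.203 with Z. The 8 libraries of L, H, S and cG exceeded every Ctrl, P and Z library. Against P the log2 fold change was 1.95 ± 0.34 (SE, adjusted p from edgeR = 4.27e-06) with L and 1.75 ± 0.35 (adjusted p 6.82e-05) with H. It was 2.07 ± 0.34 (SE, adjusted p from edgeR = 2.24e-07) with S and 2.35 ± 0.34 (adjusted p 3.17e-09) with cG. Against Ctrl it was 1.68 with L, 1.48 with H, 1.80 with S and 2.08 with cG, all called. The H call was lost without Ctrl replicate 2 (adjusted p from edgeR 0.0648). With the mitochondrial share in the model the L call ended, at a fold change of 2.08, and those of H, S and cG did not. In all, 15 of the 17 stimulations were called higher here, the exceptions being P (-0.27) and Z (0.73), and P gave 0.05 under total-count scaling. Among the pairs, values were 5.17 and 5.398 CPM in PL, 4.01 and 5.502 in PH, 5.82 and 4.04 in LH, 5.58 and 4.89 in PS. For the other combinations of 2 ligands the values were 3.36 and 5.1 CPM in PcG, 4.37 and 2.73 in ScG, 4.83 and 3.13 in ZS and 3.499 and 3.56 in ZcG. Levels in triplets were 3.78 and 4.35 CPM in PLH, 5.21 and 5.05 in PScG and 4.13 and 3.58 in ZScG.

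Its neighbour 9.0 kb before the Slfn9 start (chr11:83000240-83001411) had 1.53 and 1.83 CPM in Ctrl and 0.764 and 2.24 CPM with P. The other single ligands gave 6.29 and 6.903 CPM with L, 4.96 and 3.54 with H, 4.64 and 6.21 with S, 6.603 and 5.16 with cG and 1.71 and 2.94 with Z. The 2 P libraries were spread widely, yet those of L, H, S and cG exceeded both. Relative to P, the log2 fold change reached 2.12 ± 0.33 (SE, adjusted p from edgeR = 1.2e-07) with L, 1.84 ± 0.33 (adjusted p 2.48e-06) with S and 1.95 ± 0.33 (adjusted p 6.78e-07) with cG. With H it was 1.5 ± 0.34 (SE, adjusted p from edgeR = 0.000628), lost without P replicate 1 (adjusted p = 0.131) or H replicate 1 (adjusted p = 0.062). Against Ctrl, L (1.96), H (1.34), S (1.68) and cG (1.79) passed, H not without Ctrl replicate 1 (0.0911) or H replicate 1 (0.143). None of the 4 was called with the mitochondrial share in the model, where the fold changes were 1.86, 1.28, 1.60 and 1.70. With pairs of ligands the levels were 4.59 and 6.11 CPM in PL, 2.44 and 5.17 in PH, 6.502 and 8.57 in LH, 6.58 and 5.49 in PS. The other pairs gave 3.47 and 2.68 CPM in PcG, 3.16 and 2.405 in ScG, 2.58 and 3.41 in ZS and 3.98 and 3.23 in ZcG. With 3 ligands the values were 5.61 and 4.13 CPM in PLH, 4.94 and 5.47 in PScG and 4.47 and 5.24 in ZScG. LH, with 6.50 and 8.57 CPM, had the highest mean.

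Behind the Slfn1 start, the 4 peaks 1.5, 2.3, 9.0 and 9.9 kb after it were lower with P than with L, H and cG, and the first and second of them also overlap the gene Gm51911. That 9.0 kb after the start had 1.53 and 0.0965 CPM in Ctrl, 0.229 and 0.289 with P, 2.26 and 1.73 with L, 1.59 and 0.862 with H, 0.785 and 0.676 with S and 1.83 and 0.501 with cG. The P libraries lay below those of these 4 ligands, and the Ctrl libraries were far apart. Its log2 fold change over P was 2.89 ± 0.68 (SE, adjusted p from edgeR = 0.000963) with L, 2.22 ± 0.71 (adjusted p 0.0222) with H and 2.11 ± 0.72 (adjusted p 0.0207) with cG, and S did not pass (1.46 ± 0.75 (adjusted p 0.148)). Its mean was 0.982 CPM, and its low levels with P rest on few reads. The peak was chosen after its values were seen. The peak 1.5 kb after the Slfn1 start (chr11:83117950-83118723) had 1.97 and 1.54 CPM in Ctrl, 0.688 and 1.44 with P, 6.57 and 5.29 with L, 3.88 and 5.26 with H, 3.07 and 3.69 with S and 4.06 and 5.45 with cG. The libraries of these last 4 lay above those of Ctrl and P. Against P it was higher by 2.45 ± 0.36 (SE, adjusted p from edgeR = 3.56e-08) with L, 2.07 ± 0.38 (adjusted p 7.59e-06) with H, 1.65 ± 0.38 (adjusted p 0.000302) with S and 2.14 ± 0.37 (adjusted p 1.08e-06) with cG. It was chosen after its values were seen.

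The peak 2.3 kb after the Slfn1 start (chr11:83118906-83119288) varied most of the 40 over the 18 groups, at a mean of 1.04 CPM. It had 0.655 and 0.0965 CPM in Ctrl and 0.153 and 0.0722 CPM with P. The remaining single ligands had levels of 0.918 and 0.701 CPM with L, 1.14 and 1.72 with H, 0.785 and 0.922 with S, 1.35 and 1.29 with cG and 0.262 and 0.419 with Z. The P libraries held 2 counts and 1 count, and the Ctrl libraries 6 and 1, so the low end rests on few reads. The ratio to P over both libraries was 7.14 with L (95% exact interval 2.19 to 36.9), 12.5 with H (3.96 to 63.2), 7.68 with S (2.36 to 39.6) and 11.8 with cG (3.73 to 60.2), where the intervals cover counting error only. In edgeR all 4 passed against P, with adjusted p-values of 0.019, 0.000505, 0.00639 and 0.00039. The L call was lost without P replicate 1 (0.0684), P replicate 2 (0.193) or L replicate 1 (0.102), and the S call without P replicate 2 (0.098). Against Ctrl, cG was called among the single ligands (1.84 ± 0.71 (SE, adjusted p from edgeR = 0.0451)), a call lost without Ctrl replicate 2 (0.434), cG replicate 1 (0.114) or cG replicate 2 (0.106), and lost with the mitochondrial share in the model (1.63). The combinations called were PL with 1.87 and 2.24 CPM, ZS with 1.07 and 2.77 CPM and PScG with 2.06 and 1.28 CPM.

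The peak 9.9 kb after the Slfn1 start (chr11:83126387-83127034) was the 1 member peak called lower with P than in Ctrl. It had 3.39 and 3.67 CPM in Ctrl and 1.68 and 1.805 CPM with P. The other single ligands gave 7.21 and 6.903 CPM with L, 5.91 and 5.52 with H, 2.94 and 3.26 with S, 5.73 and 6.16 with cG and 4.33 and 2.52 with Z. The P libraries were the lowest of all 36 and those of L the highest. P against Ctrl gave -1.01 ± 0.35 (SE, adjusted p from edgeR = 0.0278), a call lost without any 1 of its 4 libraries (adjusted p 0.0759 to 0.132). Against P the log2 fold change was 2.01 ± 0.31 (SE, adjusted p from edgeR = 2.08e-07) with L, 1.71 ± 0.32 (adjusted p 1.94e-05) with H and 1.76 ± 0.32 (adjusted p 3.53e-06) with cG, and S did not pass (0.83 ± 0.34 (adjusted p 0.0604)). L against Ctrl gave 1.00 ± 0.30 (SE, adjusted p from edgeR = 0.00772), lost without Ctrl replicate 1 (0.0756). With the mitochondrial share in the model, neither was called, and the values were -1.61 with P and 0.14 with L. The pairs gave 3.66 and 4.48 CPM in PL, 5.001 and 5.28 in PH, 6.01 and 4.997 in LH, 3.51 and 3.84 in PS. The remaining pairs had 3.42 and 3.95 CPM in PcG, 4.18 and 3.83 in ScG, 2.26 and 6.73 in ZS and 4.95 and 4.67 in ZcG. The triplets gave 3.39 and 4.35 CPM in PLH, 4.76 and 2.56 in PScG and 5.81 and 4.55 in ZScG, and no combination was called against Ctrl.

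A pair of distal peaks was called higher than Ctrl with P and with L and S. That 8.3 kb after the Slfn2 start was not called with cG or Z, and that 9.5 kb before the Slfn1 start not with H, cG or Z. The peak 8.3 kb after the Slfn2 start (chr11:83073261-83073575) had 0 and 0.386 CPM in Ctrl, from 0 and 4 counts, and 0.688 and 1.3 CPM with P. The remaining single ligands had levels of 1.06 and 1.02 CPM with L, 1.46 and 0.6897 with H, 1.83 and 1.41 with S, 0.716 and 1.003 with cG and 0.656 and 0.944 with Z. Every stimulated library lay above both Ctrl libraries, by a margin set by few counts. The log2 fold change was 2.24 ± 0.79 (SE, adjusted p from edgeR = 0.0294) with P and 2.94 ± 0.74 (adjusted p 0.000903) with S, and 15 of the 17 stimulations were called. The calls for P, L, H and S were all lost without Ctrl replicate 1 (adjusted p from edgeR 0.337, 0.295, 0.359 and 0.0709). The P call was also lost without P replicate 2 (0.255), the L call without L replicate 1 (0.0607) or 2 (0.0568) and the H call without H replicate 1 (0.338). All 4 ended with the mitochondrial share in the model, where the fold changes were 2.61, 2.83, 2.70 and 3.35. Among the pairs, values were 1.22 and 1.22 CPM in PL, 0.592 and 1.18 in PH, 1.18 and 1.82 in LH, 1.69 and 1.61 in PS. Levels in the further pairs were 1.17 and 1.34 CPM in PcG, 0.93 and 0.875 in ScG, 1.18 and 0.737 in ZS and 0.603 and 1.45 in ZcG. Levels in triplets were 1.56 and 1.99 CPM in PLH, 1.17 and 0.853 in PScG and 1.12 and 0.965 in ZScG. None of L, H, S and cG was called against P here.

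The peak 9.5 kb before the Slfn1 start (chr11:83107148-83107486) had 0.437 and 0.482 CPM in Ctrl and 1.15 and 2.82 CPM with P. The other single ligands gave 1.84 and 1.62 CPM with L, 1.33 and 1.29 with H, 1.64 and 1.599 with S, 1.27 and 1.15 with cG and 1.84 and 1.05 with Z. Both Ctrl libraries lay below the other 34. The log2 fold change was 2.09 ± 0.57 (SE, adjusted p from edgeR = 0.00314) with P, 1.88 ± 0.57 (adjusted p 0.00861) with L and 1.79 ± 0.58 (adjusted p 0.0112) with S. The P call was lost without P replicate 2 (adjusted p = 0.233), and those for L and S without either Ctrl library (0.0609 to 0.0818). All 3 ended with the mitochondrial share in the model, where the fold changes were 2.21, 2.05 and 1.92. In all, 14 of 17 stimulations were called, among them ScG, ZcG and ZScG, whose mitochondrial share is in the range of Ctrl. With pairs of ligands the levels were 1.79 and 3.06 CPM in PL, 2.57 and 2.302 in PH, 1.92 and 2.38 in LH, 1.19 and 1.41 in PS. For the other combinations of 2 ligands the values were 2.396 and 2.61 CPM in PcG, 1.77 and 1.75 in ScG, 1.504 and 1.75 in ZS and 2.05 and 2.89 in ZcG. With 3 ligands the values were 2.54 and 2.43 CPM in PLH, 1.98 and 1.49 in PScG and 1.23 and 2.21 in ZScG, and none of L, H, S and cG was called against P.

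Against Ctrl as a whole, higher calls far outnumbered lower ones in the cluster. P called 5 of the 40 peaks higher and 1 lower (all tested peaks, 11.1% and 9.41%), a share of higher calls close to that of all peaks. L called 18 higher and 0 lower (all peaks, 11.3% higher and 11.1% lower), H called 8 and 0 (5.23% higher and 5.44% lower), S called 12 and 0 (14.1% higher and 13.8% lower) and cG called 13 and 0 (11.6% higher and 11.6% lower). Z called 1 higher, the Slfn3 start, and 0 lower (4.16% higher and 1.75% lower), with 11 peaks at an unadjusted p under 0.05. The members' median log2 fold change against Ctrl was −0.04 with P, 1.03 with L, 0.75 with H, 0.42 with S, 0.71 with cG and 0.25 with Z, beside −0.04 to 0.03 over all tested peaks. The peaks higher with P were the Slfn2 start, those 7.0 kb before and 8.3 kb after it, that 9.5 kb before Slfn1 and the Slfn3 start. Without P replicate 2 the P count fell from 6 calls to 1.

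**Figure D4:**
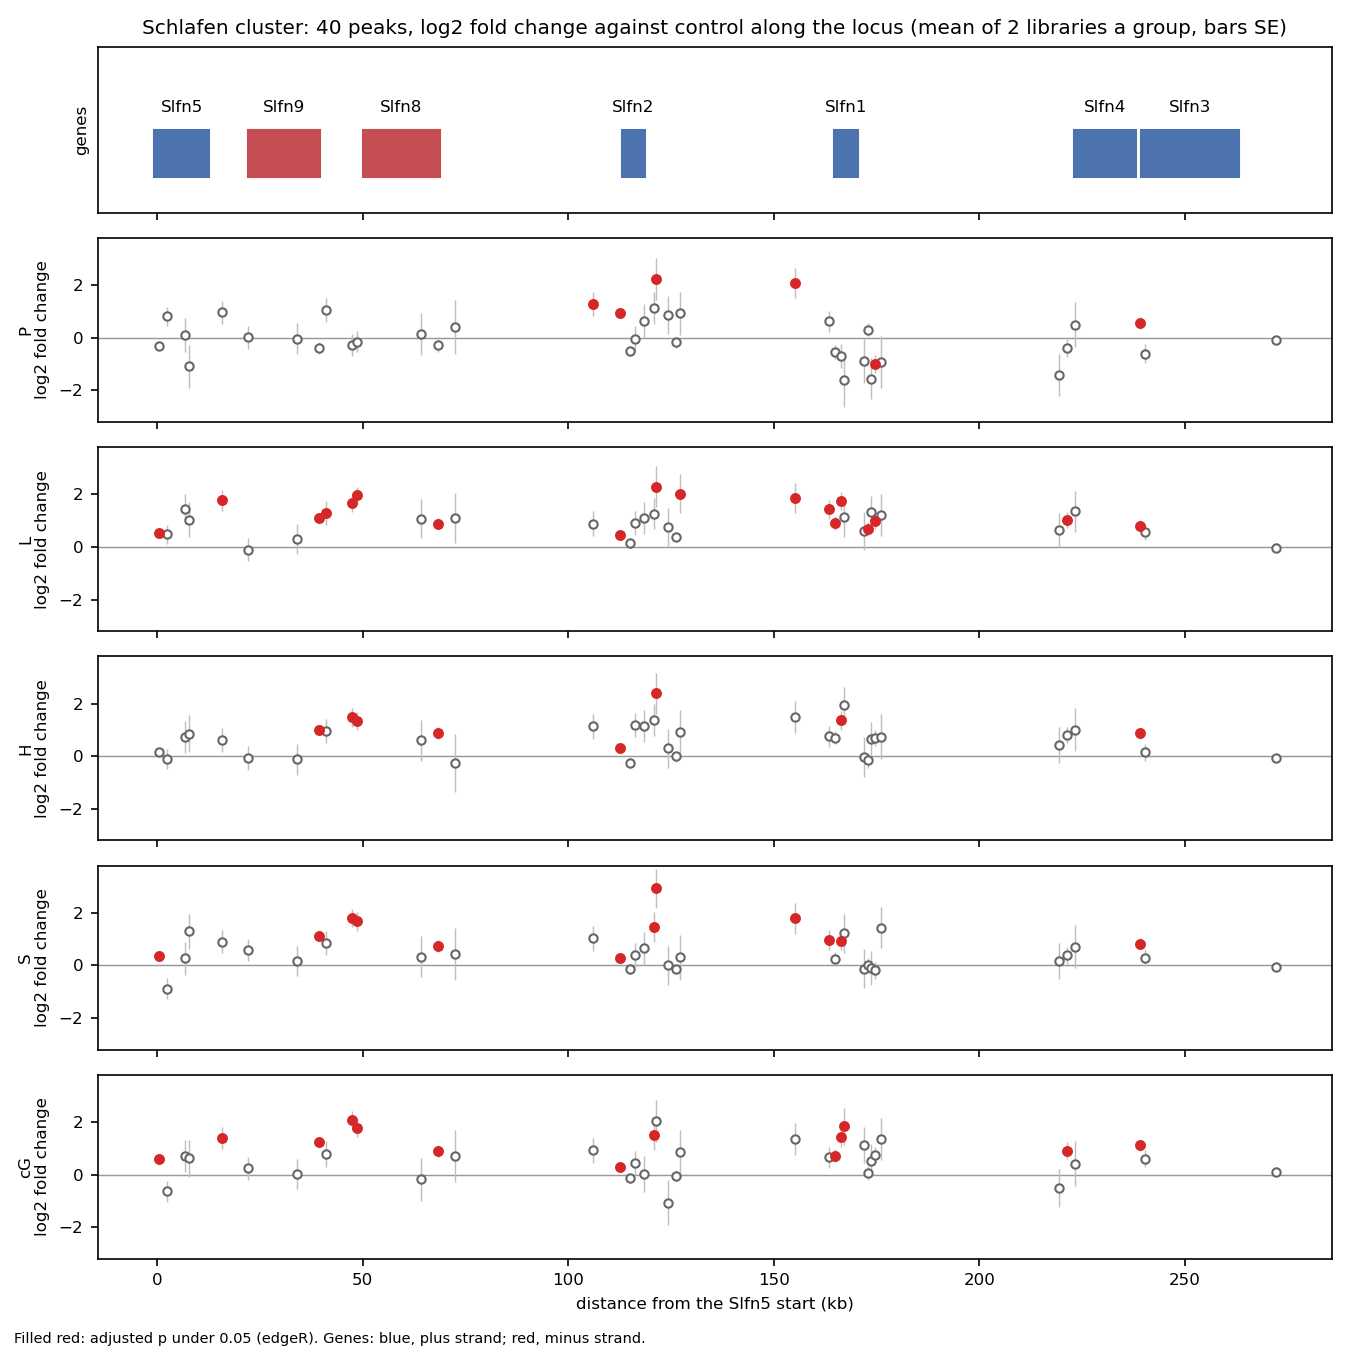
Log2 fold change against Ctrl (y axes, bars are SE, 2 libraries a group) of the 40 peaks along the cluster (x axis, distance from the Slfn5 start in kb) for P, L, H, S and cG, below a map of the 7 genes (blue plus strand, red minus strand). Filled points passed an adjusted p of 0.05, and between 39 and 70 kb, at Slfn9 and Slfn8, the L, H, S and cG panels hold filled points above 0 while the P panel holds none.

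Among pairs, PL called 14 peaks higher (all peaks, 13.8% higher and 13.5% lower), PH 12 (13.6% higher and 12.8% lower), LH 14 (11.3% higher and 10.4% lower) and PS 12 (17.3% higher and 16.2% lower). PcG called 14 higher (16.8% higher and 16.2% lower), ZS 9 (14.4% higher and 14% lower), ZcG 9 (11.4% higher and 10.3% lower) and ScG 6 (14.4% higher and 13.3% lower). ScG had a share of higher calls near that of all peaks, although S and cG alone each called more. The triplets called 15 for PLH (14.9% higher and 14.7% lower), 14 for PScG (19% higher and 18.1% lower) and 12 for ZScG (16.2% higher and 16.1% lower). The only lower calls in combinations were at the peak 2.1 kb after the Slfn2 start, in ScG (-0.65 ± 0.21 (SE, adjusted p from edgeR = 0.011)) and in ZcG (-0.56 ± 0.21 (adjusted p 0.044)). It had 10.9 and 12.8 CPM in Ctrl, 7.91 and 7.21 in ScG and 7.601 and 8.57 in ZcG, without overlap. This peak, too, is outside the rule for named peaks and is given because it was called lower. Over the 17 stimulations, 188 of 680 pairs of a peak and a stimulation were called higher and 3 lower. Of the 40 peaks, 24 were higher in at least 1 stimulation and 15 were called in none. The matching counts over all tested peaks were not made, so these totals are not a trait particular to the cluster. The 15 include the Slfn4 start and the peak 32.9 kb after the Slfn3 start, which has a high mean of 14.3 CPM and the smallest variation over the groups. With the mitochondrial share of each library in the model, 79 calls were left in place of 191.

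**Figure D5:**
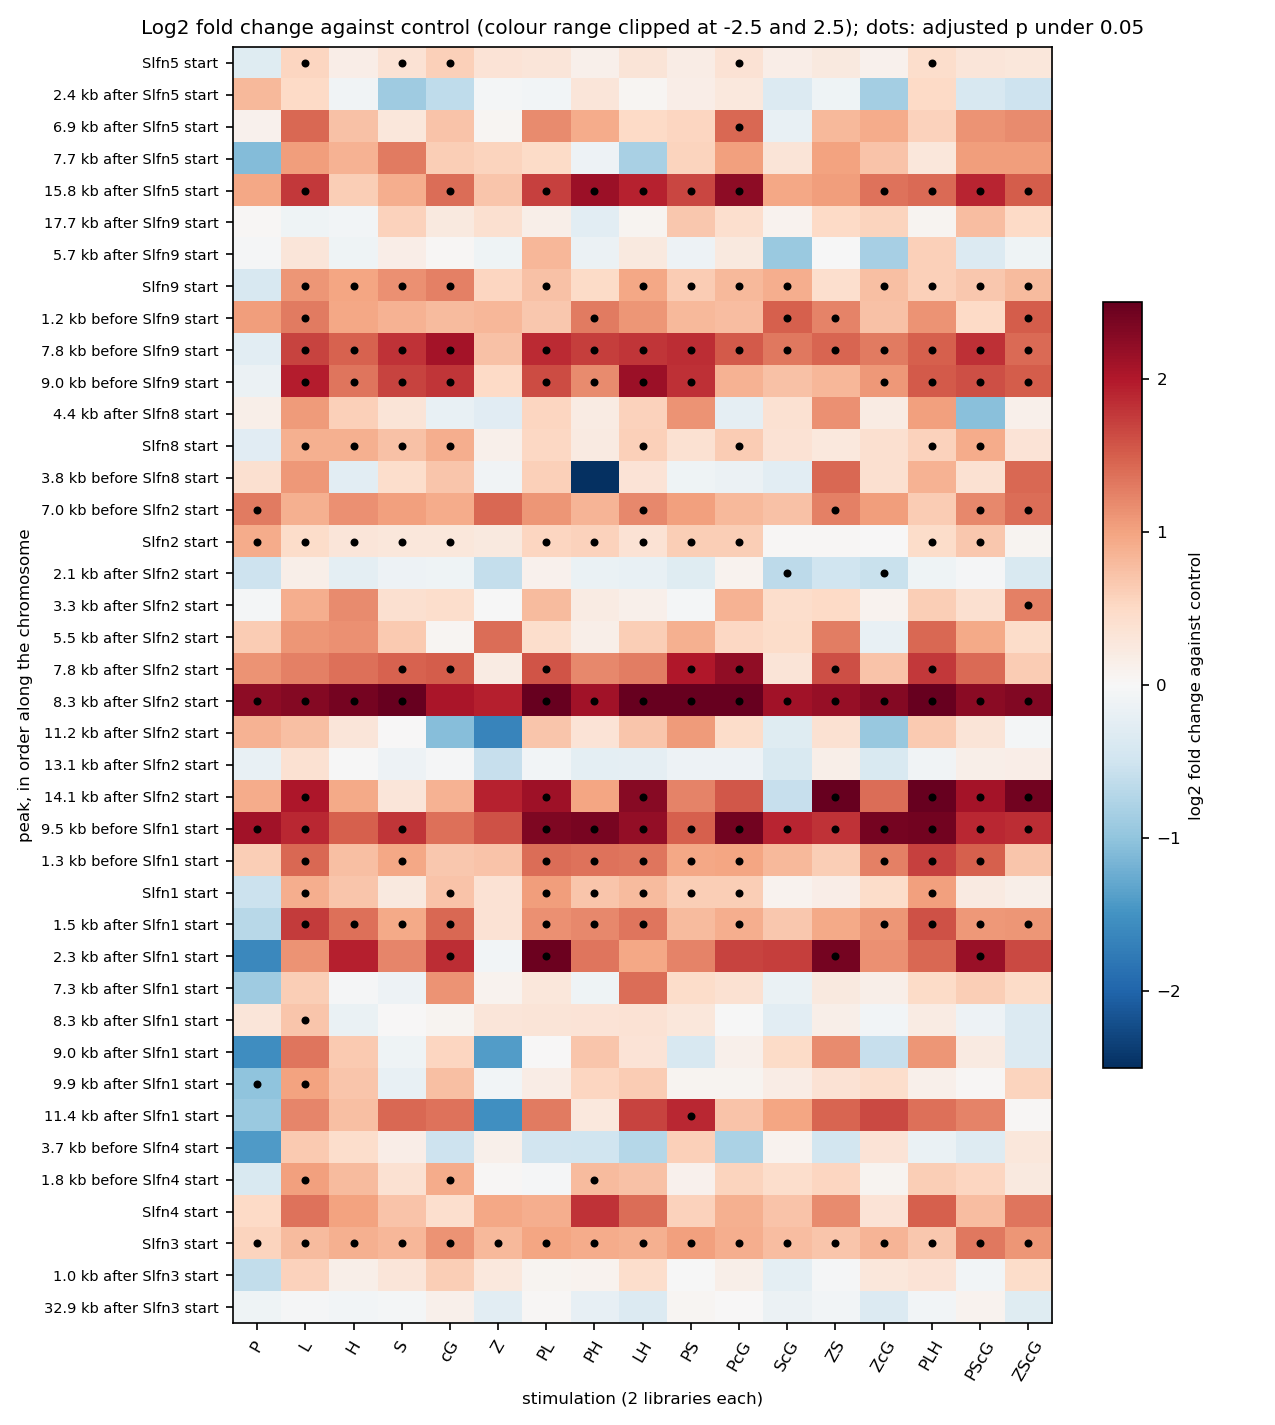
Log2 fold change against Ctrl (colour, clipped at −2.5 and 2.5) of the 40 peaks (rows, in chromosomal order) in 17 stimulations (columns, 2 libraries each), with dots where the adjusted p was under 0.05. The Slfn3 start has a dot in all 17 columns, the peaks 7.8 kb before Slfn9 and 8.3 kb after Slfn2 in 15 each, and the P column has no dots at Slfn9 and Slfn8.

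S and cG, the RNA virus and the STING ligand, were compared directly without a control library. The comparison called 0 of the 40 peaks in edgeR and 0 in DESeq2, with 2 at an unadjusted p under 0.05 (all tested peaks called in either direction, 0.948%). The difference S minus cG on the log2 scale was -0.12 ± 0.17 (adjusted p 0.875) at the Slfn9 start, -0.17 ± 0.19 (adjusted p 0.839) at Slfn8, -0.22 ± 0.14 (adjusted p 0.61) at Slfn5 and -0.47 ± 0.23 (adjusted p 0.449) at Slfn1. At Slfn1 the S libraries (5.82 and 5.47 CPM) lay below those of cG (8.67 and 7.02 CPM), though the peak did not pass. These standard errors leave room for differences larger than 1 standard error around each estimate, and equality was not shown.

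PL, PH, PS and PcG against P each called a larger share of the members higher than of all tested peaks. Against L, H, S or cG, the same pairs called 2.5% of the members (PL, PS) or 5% (PH, PcG). Of these 4 shares only that of PL exceeded the share of all peaks. PL against P called 10 higher and 1 lower (all peaks, 4.16% and 4.31%). PH against P called 9 higher and 1 lower (1.69% and 0.982%). PS against P called 11 and 1 (9.32% and 8.82%), and PcG against P 13 and 1 (7.37% and 7.38%). In each of these 4 the lower peak was the Slfn2 start. At the Slfn9 start the log2 fold change over P was 1.14 ± 0.20 (SE, adjusted p from edgeR = 8.31e-06) in PL, 0.87 ± 0.20 (adjusted p 0.00271) in PH, 1.03 ± 0.19 (adjusted p 1.14e-05) in PS and 1.22 ± 0.19 (adjusted p 2.45e-07) in PcG. These 4 comparisons share the P libraries and use no Ctrl library. The mitochondrial share was 50.5% and 48.47% with P, and lower in PS (46.59% and 45%) and PcG (44.46% and 45.72%). For PS and PcG it cannot be told apart from the added ligand. In PL and PH the range of the share overlapped that of P. PL against L called 1 lower (all peaks, either direction, 1.13%), PH against H 1 higher and 1 lower (7.56%), PS against S 1 higher (2.94%) and PcG against cG 1 higher and 1 lower (9.11%). These were the peak 1.8 kb before Slfn4 for PL, 15.8 kb after Slfn5 (higher) and the Slfn8 start (lower) for PH, the Slfn2 start for PS, and the Slfn2 start (higher) and 9.0 kb before Slfn9 (lower) for PcG. At the Slfn8 start PH was below H, the log2 difference being -0.66 ± 0.20 (SE, adjusted p from edgeR = 0.0221).

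The other pairs against their single ligands called shares of the members below those of all tested peaks, except ZS against S (5% of the members). LH against L called 0 (4 at an unadjusted p under 0.05, 0 in DESeq2, all peaks 0.0603%) and LH against H 1 (3.78%). ScG against S called 0 (4 unadjusted, 0 in DESeq2, all peaks 0.581%) and ScG against cG 1 lower (4.94%), the peak 9.0 kb before Slfn9. ZS against Z called 4 higher (15.2%), ZS against S 1 higher and 1 lower (2.52%), ZcG against Z 1 higher (9.08%) and ZcG against cG 1 lower (2.87%). The lower peaks were the Slfn9 start in ZS against S (-0.72 ± 0.18 (SE, adjusted p from edgeR = 0.0125)) and the Slfn5 start in ZcG against cG (-0.48 ± 0.15 (adjusted p 0.0486)). ScG and ZcG differ from S and cG in mitochondrial share, which cannot be told apart from the added ligand.

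Few peaks were called between triplets and their pairs, among the members as among all tested peaks. Missing calls do not show that levels were equal. PLH against PL, PH and LH called 0 each in edgeR and in DESeq2, with 1, 5 and 2 peaks at an unadjusted p under 0.05 (all peaks 0%, 0.248% and 0.539%). PScG against PS and PcG called 0 each in both tools, with 2 and 2 unadjusted (0.602% and 0.411%), and against ScG 3 higher (4.54%). The 3 were the Slfn2 start (0.64 ± 0.11 (SE, adjusted p from edgeR = 3.3e-06)) and the peaks 2.1 and 14.1 kb after it. The mitochondrial share was 45.74% and 44.39% in PScG and 57.25% and 61.45% in ScG, which cannot be told apart from the added P. With that share in the model no call of a triplet against a pair was left. ZScG against ZS and ZcG called 0 each in both tools, with 3 and 2 unadjusted (0.0586% and 2.79%), and against ScG 1 higher, that 14.1 kb after the Slfn2 start (0.774%), which DESeq2 did not call.

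The called departures from additivity on the log2 scale were all negative in pairs. Called or not, the departure was above 0 at 22 of the 40 peaks in PS, 21 in PcG, 18 in PH, 17 in PL and 16 in ZS. It was above 0 at 8 in ZcG, 5 in ScG and 3 in LH. The interaction of a pair is its log2 level minus those of both single ligands plus that of Ctrl, so that a negative value means less than the sum. It was called for 10 peaks in ScG (all peaks called lower, 7.52%), 4 in LH (2.62%), 4 in ZcG (1.74%) and 3 in ZS (2.61%). It was called for 2 in PS (2.91%) and for 1 each in PL, PH and PcG (4.2%, 1.09% and 2.18%). In PL, PH, PS and PcG the Slfn2 start was called, with values from -0.86 ± 0.15 (SE, adjusted p from edgeR = 3.59e-06) in PL to -0.60 ± 0.15 (adjusted p 0.0047) in PcG. In ScG the calls included the starts of Slfn9 (-1.5 ± 0.26 (SE, adjusted p from edgeR = 3.32e-06)), Slfn8 (-1.29 ± 0.30 (adjusted p 0.000738)), Slfn3 (-1.18 ± 0.28 (adjusted p 0.00104)), Slfn5 (-0.79 ± 0.20 (adjusted p 0.00265)) and Slfn2 (-0.55 ± 0.15 (adjusted p 0.00549)). In LH they included the starts of Slfn9 (-1.12 ± 0.26 (adjusted p 0.00246)) and Slfn8 (-1.18 ± 0.29 (adjusted p 0.0057)) in edgeR. Ctrl enters every interaction, so the difference in mitochondrial share cannot be told apart from the ligands here. With that share in the model, 6 of the 26 calls of pair interactions were left. The triplet interaction called 5 peaks higher in ZScG (all peaks called higher, 0.974%), 1 higher in PScG (1.03%), the Slfn2 start, and 0 in PLH (4 unadjusted, 1 in DESeq2, all peaks in either direction 0.783%). None of these 6 calls was left with the mitochondrial share in the model.

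The interferon pathway gives a setting for these changes. A list of 32 genes of type I interferon signalling, written with earlier results on some of them known, had 52 tested peaks at its gene starts or ends. Against P, L called 31 of the 52 peaks higher, H 24, S 31 and cG 34, and none was called lower in any of the 4, beside 5.18%, 4.95%, 11.6% and 11.1% of all tested peaks called higher. Against Ctrl, P called 0 higher and 4 lower, L 27 higher, H 13, S 29, cG 30 and Z 8, with 0 lower in each of these 5. The shares of all tested peaks called higher were 11.1% with P (9.41% lower), 11.3% with L, 5.23% with H, 14.1% with S, 11.6% with cG and 4.16% with Z. By role, the 21 interferon targets had 35 peaks, of which 27 were higher than P with L, 20 with H, 25 with S and 27 with cG. The 2 kinases, Jak1 and Tyk2, had 2 peaks, of which 1 was higher with cG and none with L, H or S. The list's median log2 fold change over P was 0.76 with L, 0.48 with H, 0.75 with S and 0.85 with cG, beside 0.85, 0.47, 0.36 and 0.42 for the 40 Schlafen peaks. Both lists share their libraries and these medians are a description.

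The member peak that varied most, 2.3 kb after the Slfn1 start, was set beside peaks at the ends of other protein-coding genes. Among 11552 such peaks, the most alike over the 18 group means were at 9530068E07Rik (Pearson r 0.873), Gstm6 (0.871), Pim1 (0.856), Acyp2 (0.853) and Oasl1 (0.837), an interferon target of the pathway list. These correlations are across groups whose libraries differ in depth and mitochondrial share, and the low counts of the Slfn1 peak limit them.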

How the data were processed

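Raw counts of ATAC-seq reads per peak, not normalized, are the authors' deposited values for 36 libraries, and the peak positions come from the authors' deposited list (mm10). Bowtie2 2.2.9, MACS2, bedtools and featureCounts are named per the submitters' processing notes. Their settings, the treatment of duplicates and of reads matching several places, any shift of read ends and whether peaks were called on pooled libraries are not given in the sources used here. Groups come from the labels.

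The single mitochondrial peak was left out, peaks with low counts were removed (filterByExpr by group, minimum count 10; 286 peaks), and 119464 of 119751 peaks were fitted over all 36 libraries with TMM scaling and edgeR 4.0.16 (R 4.3.3), by the quasi-likelihood test with 18 residual degrees of freedom and a common dispersion of 0.02. P-values were adjusted by Benjamini-Hochberg over all tested peaks of each of 58 comparisons, at 0.05. Of the 58, 4 comparisons (L, H, S and cG against P) were added after the fits had been seen. DESeq2 1.42.0, limma 3.58.1, other scalings, thinning to 8181254 counts, the mitochondrial share as a covariate, groups fitted alone, a 2 kb flank, a replicate block and leaving out each library were alternatives. The members, the gene lists and the tests were chosen with earlier results of these data known.

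Described in full were the peak at each gene's start and, among called peaks with a mean of at least 1 CPM, the 2 highest and 2 lowest log2 fold changes with S, cG, P and L. Peaks outside that rule are said to be so, or to be chosen after their values were seen, where library values are given. On simulated counts for P against Ctrl with 119464 peaks, edgeR recovered 22% of peaks raised by 1 on the log2 scale, 8% of those lowered by 1, 0% of those raised by 0.5 and 2% of those lowered by 0.5, with 0 false calls. The simulation changed only 50 peaks at each size and gave every peak a dispersion of 0.02. In the data, 11.1% of peaks were called higher and 9.41% lower with P against Ctrl. The adjusted threshold was therefore stricter in the simulation, and its recovery shares do not give the power of the reported tests. Depth was 8181254 to 21985891 counts per library outside the mitochondrial peak. PCR reads carry no molecular identifiers, so intervals cover counting error only.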

Additional observations from a re-analysis of the deposited data

Results flagged for a closer look

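For each pair of ligands, the test of the interaction itself asks whether the effect of 1 ligand differs with and without the other. It was called by edgeR for 1 Schlafen peak in PL, 1 in PH, 4 in LH, 2 in PS, 1 in PcG, 10 in ScG, 3 in ZS and 4 in ZcG. For the triplets it was called for 1 peak in PScG and 5 in ZScG. The Slfn2 start was among the called peaks in PL, PH, PS, PcG, ScG, ZS and ZcG and in both of these triplets. All pair calls were negative and all triplet calls positive. Every one of these tests includes the Ctrl libraries, whose mitochondrial share of 60.1% to 61.9% is in the higher range, and the part of that share in them was not tested apart from the fit that includes it.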

How the results depend on the processing

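Of the 191 calls against Ctrl, 2 changed sign under an alternative, both with the mitochondrial share as a covariate and neither called there: the peak 1.8 kb before the Slfn4 start went from 1.02 to -0.10 with L and from 0.92 to -0.09 with cG. No call against P changed sign. Against Ctrl over all 17 stimulations, 191 calls became 79 with the mitochondrial share as a covariate and 128 to 191 when 1 library was left out. With that covariate P had 1 call, L 1, H 2, S 2, cG 2, PL 8, PH 6, PS 3, PcG 3, ZS 3, PLH 4 and PScG 5. Scaled by total counts L had 28, H 17, cG 20, PH 19, PS 20, PcG 23 and ZS 14. Fitted on their groups alone P had 3, ZS 4 and ZcG 5. With a 2 kb flank, which leaves 26 peaks, P had 2, LH 9, ZS 5, PScG 9 and ZScG 7. Thinned to equal depth P had 2 and Z 0, and Z had 2 with loess scaling and 2 in DESeq2.

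Pair interactions, 26 in all, became 55 with total-count scaling and 6 with the covariate. The 4 calls of triplets against pairs became 9 and 0, and 2 when thinned, with groups alone or at 2 kb. The 6 triplet interactions became 13 and 0. The cause was not tested.

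Without 1 library, calls against Ctrl ran over 1 to 4 for P, 13 to 16 for L, 5 to 7 for H, 6 to 9 for S, 9 to 13 for cG, 0 to 1 for Z, 11 to 12 for PL, 8 to 10 for PH, 6 to 12 for LH, 6 to 9 for PS, 9 to 11 for PcG, 4 to 7 for ScG, 4 to 5 for ZS, 4 to 7 for ZcG, 11 to 13 for PLH, 7 to 14 for PScG and 7 to 10 for ZScG. Pairs against single ligands ran over 42 to 63, pair interactions 14 to 27, triplets against pairs 1 to 4 and triplet interactions 3 to 6. Without Ctrl replicate 1 there were 2 calls for P, 6 for S, 0 for Z, 9 for LH, 6 for PS, 9 for PcG, 5 for ZS, 5 for ZcG, 7 for ZScG and 14 pair interactions. Without Ctrl replicate 2 Z had 0, PcG 9 and each of ScG, ZS and ZcG 4. Leaving out a stimulated library moved a count by over 1.5 times for P (replicates 1 and 2), H (1 and 2), S (1), Z (1), LH (1), PcG (2), ScG (2), ZS (1 and 2), ZcG (2), PScG (1) and ZScG (2). Against P, L ran over 12 to 13, H 8 to 12, S 9 to 12 and cG 14 to 15, and H fell to 8 without H replicate 1.

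Of 36 named calls against P, 1 was lost with the covariate, 3 when thinned and 6 in at least 1 leave-out. Of 42 against Ctrl, 33, 12 and 25 were lost. With the replicate number as a block, 191 calls against Ctrl and 26 pair interactions were made and no named call changed. Deviations of same-numbered libraries correlated at −0.04 to 0.03 over 153 pairs of groups. These values do not show whether libraries of the same number share a mouse, culture or batch, which the labels do not say. Replicates differed by more than counting noise, with a chi-square per degree of freedom of 2.08 to 3.31.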

Other observations

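Between the members, 18 further peaks of the region lie more than 10 kb from any of the 7 genes. Of these, P against Ctrl called 4 higher and 2 lower, L 10 higher, H 4, S 5, cG 5 and Z 1, with 0 lower in those 5. Of all tested peaks, 11.1% were higher and 9.41% lower with P, and 11.3%, 5.23%, 14.1%, 11.6% and 4.16% were higher with L, H, S, cG and Z. Against P, L called 9 higher, H 6 higher and 1 lower, S 6 higher and cG 7 higher, where 5.18%, 4.95% (7.18% lower), 11.6% and 11.1% of all peaks were called higher. The peak at chr11:83043738-83045350 (mm10) had 6.23 and 5.88 CPM in Ctrl, 15.5 and 15.1 with P and 20.1 and 20.4 with S, without overlap of Ctrl with either. Its log2 fold change against Ctrl was 1.34 with P and 1.74 with S (adjusted p from edgeR 1.11e-09 and 4.42e-16), and all 17 stimulations were called higher. It is not a member and is outside the rule for named peaks.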
